A study of Mus musculus with 25 samples.

Results

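Barx1, Meox1, Meox2 and Sim2 were followed through 25 RNA-seq libraries of the mouse palate. The 4 genes were found by their symbols in a table of 37406 genes, of which 22399 were above 0 in at least 1 library. The group was selected on the posterior against anterior RPKM of Barx1, Meox2 and Sim2, which stood high in the posterior palate in these same libraries, and Meox1 was taken with it as the close relative of Meox2. The posterior against anterior levels below are therefore a description with no test, and the tests concern differences between compartments within each region. All libraries came from wild type CD1 embryos at E14.5, which the paper places shortly after the palatal shelves fuse in the midline, with no treatment. Tissue was cut out by laser capture microdissection from 8 compartments, which were the medial, lateral, oral and nasal parts of the anterior palate (13 libraries) and of the posterior palate (12 libraries). The paper's diagram divides the shelves into medial and lateral parts, and separately into oral and nasal parts. A medial or lateral sample may thus overlap in position with an oral or nasal one. Each compartment had 3 replicates, except anterior nasal with 4. The number of embryos behind a library was not given, so the p-values measure the spread between these libraries.

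The secondary palate grows as paired shelves of neural crest derived mesenchyme covered by epithelium, and its front and back express different transcription factors. Barx1 is a Bar-class homeobox gene of jaw and stomach mesenchyme. It is induced by Fgf8 and held back by Bmp4 in the jaw, and in the stomach it raises the Wnt antagonists Sfrp1 and Sfrp2. Meox1 and Meox2 are homeobox genes of the somites and the muscle and vertebral lineages, and mice without Meox2 can have a cleft palate. Sim2 is a bHLH-PAS factor that binds DNA together with Arnt or Arnt2, and mice without it have a cleft palate with excess hyaluronan.

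Values are RPKM, reads per kilobase of transcript scaled to library size, so levels can be set side by side between genes of unlike length. The steps between low RPKM values imply 1.64 to 6.56 M reads per library (median 3.27 M) among those kept after duplicate and multiply aligned reads were removed, an estimate on which 44 of 132 usable genes concurred. Replicates of a compartment correlated across genes with r between 0.433 and 0.915 over 27 pairs. A pair of libraries stood apart. Posterior medial replicate 2 had 12935 genes above 0, where the other 24 libraries had 16330 to 20605, and it correlated at 0.433 and 0.528 with its replicates. Anterior oral replicate 1 had the lowest implied total and correlated at 0.543 and 0.623 with its replicates. The libraries were spread over 8 sequencing runs, lettered A to H here. The alignment names of the 6 libraries of runs A, B and C carry the words ERK2_WT (2 libraries) or Tgfbr2_WT (4 libraries), while the labels give CD1 wild type for all. Mesenchyme markers summed to 601 to 1110 RPKM in every library, and all 8 of them were present in each compartment. In bulk tissue, fewer cells that express a gene and less RNA per cell cannot be told apart.

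Barx1 (gene ID 12022, chromosome 13, 48758405 to 48761876, mm9) was the most even of the genes across the posterior palate. In the posterior oral libraries it stood at 91.3, 123 and 76.0 RPKM, and in posterior medial at 114, 80.5 and 70.4. In posterior lateral it stood at 60.7, 86.1 and 81.6 RPKM, and in posterior nasal at 84.4, 58.1 and 48.9. The 4 sets overlapped with each neighbour in the order oral, medial, lateral, nasal, and the spread over the 12 posterior libraries was a coefficient of variation of 26.4%. In the anterior palate the values were 4.05, 6.05 and 2.95 RPKM in medial, 6.77, 1.22 and 3.71 in lateral, and 1.02, 4.71, 5.86 and 5.42 in nasal. In anterior oral they were 3.58 and 8.41 RPKM, and the shallow replicate 1 is listed at 0, where 3 reads would have given 1.31 RPKM. The lowest posterior library was 5.82 times the highest anterior one. The posterior libraries hold an estimated 172 to 869 reads of Barx1 and the anterior ones 0 to 77.1, so sampling of reads by itself gives a spread (coefficient of variation) of 5.09% in the median posterior and 23.2% in the median anterior library.

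The start of Barx1 is shown because its base composition is extreme. RefSeq (GRCm38.p6) gives the 212 bases before the first annotated start of the gene as chr13:48662786-48662997 on the plus strand, with capitals marking the GC box GGGCGG on either strand:
Barx1: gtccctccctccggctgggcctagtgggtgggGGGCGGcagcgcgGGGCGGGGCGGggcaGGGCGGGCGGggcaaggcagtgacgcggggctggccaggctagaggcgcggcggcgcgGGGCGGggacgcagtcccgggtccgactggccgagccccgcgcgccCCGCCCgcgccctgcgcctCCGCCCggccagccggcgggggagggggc
The stretch is 85.4% G and C, and 99.9% of the 32851 mouse promoters in the table are at or below that share over the same length. GGGCGG occurs at 8 positions on either strand, some overlapping, and 27.2% of promoters hold it at least once in such a window. The homeobox core TAAT, the bHLH-PAS element with the letters ACGTG, the E-box with the letters CANNTG and the TATA box TATAAA, each searched on both strands, were not found in this window, where 51.6%, 13.9%, 61.0% and 9.64% of promoters hold them.

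Meox2 (gene ID 17286, chromosome 12, 37835133 to 37906115, mm9) had the highest mean of the 4 genes over the posterior libraries and the clearest steps between posterior compartments. In posterior medial it stood at 170.5, 214 and 139 RPKM, and in posterior lateral at 149.6, 52.8 and 121. In posterior oral it stood at 78.8, 116 and 80.3 RPKM, and in posterior nasal at 38.0, 41.9 and 27.2. Medial overlapped with lateral and lateral with oral, but every nasal library lay below every library of the other 3 posterior compartments. The group means were 175 ± 37.9, 107.8 ± 49.8, 91.5 ± 20.8 and 35.7 ± 7.62 RPKM (SD, n = 3 each) in medial, lateral, oral and nasal. In the anterior palate nasal had the highest mean and lateral the lowest. Anterior nasal stood at 11.995, 12.2, 11.7 and 5.55 RPKM, and anterior medial at 6.51, 8.31 and 6.35. Anterior oral stood at 9.07, 6.35 and 4.93 RPKM, and anterior lateral at 7.33, 4.26 and 3.96. These 4 anterior sets overlapped with their neighbours in order of level. The lowest posterior library, a nasal one, was 2.22 times the highest anterior library, also a nasal one.

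The 250 bases before the Meox2 transcript start, chr12:37108290-37108539 on the plus strand in RefSeq (GRCm38.p6), are shown beside those of Barx1 for contrast, with every motif searched in capitals:
Meox2: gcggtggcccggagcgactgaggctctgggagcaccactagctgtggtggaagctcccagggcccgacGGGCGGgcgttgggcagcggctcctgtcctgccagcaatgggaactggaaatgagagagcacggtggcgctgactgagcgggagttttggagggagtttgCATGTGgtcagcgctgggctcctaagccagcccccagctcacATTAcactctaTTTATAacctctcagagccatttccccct
G and C make up 62% of it, a share that 77.5% of promoters do not exceed. It holds 1 GC box GGGCGG, found in 32.7% of promoters over this length, 1 E-box CANNTG (66.2%), 1 homeobox core TAAT on the minus strand (54.9%) and 1 TATA box TATAAA on the minus strand (12.4%). The bHLH-PAS letters ACGTG were not found.

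Sim2 (gene ID 20465, chromosome 16, mm9) had the lowest anterior mean of the genes and wide spreads between replicates in posterior lateral and medial. In posterior lateral it stood at 87.9, 16.8 and 57.9 RPKM, and in posterior medial at 62.3, 21.6 and 28.6. In posterior oral it stood at 39.6, 37.2 and 29.9 RPKM, and in posterior nasal at 12.4, 25.5 and 20.1. Lateral and medial covered a range that took in oral, while every nasal library lay below every oral one. The highest lateral and medial libraries, at 87.9 and 62.3 RPKM, came from runs B and A, and the others of these compartments from runs H and G. The part of the run in these spreads was not tested. In the anterior palate oral stood highest, at 1.4998, 2.40 and 6.86 RPKM. Anterior lateral stood at 2.38, 0.655 and 0.573 RPKM, nasal at 0.980, 1.38, 0.327 and 1.11, and medial at 0.880, 0.150 and 0.455. The lowest posterior library was 1.80 times the highest anterior one, and both came from run C. The anterior values rest on an estimated 1.97 to 180 reads, with a counting coefficient of variation of 31.9% at the median, and the posterior ones on 160 to 2086. The table gives Sim2 a span of 263134 bases, 94085505 to 94348638, where RefSeq (GRCm38) has 41929, so the transcript length behind its RPKM is uncertain and its level beside other genes is too.

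Meox1 (gene ID 17285, chromosome 11, 101738824 to 101755668, mm9) was low in every compartment and did not share the pattern of the other 3 genes. The 12 posterior libraries averaged 4.51 ± 2.87 RPKM (SD) and the 13 anterior ones 2.97 ± 0.972, and the ranges, 1.81 to 11.8 and 1.13 to 4.42 RPKM, overlapped in the pool and in each of the 4 pairs of compartments. Its highest value came from posterior medial replicate 2, the library with few detected genes, and without that library and anterior oral replicate 1 the means were 3.85 ± 1.82 (SD, n = 11) and 2.89 ± 0.975 RPKM (SD, n = 12). The posterior libraries hold an estimated 10.1 to 82.7 Meox1 reads each, which limits what could be seen. Meox2 exceeded Meox1 in 24 of 25 libraries, and in anterior lateral replicate 3 Meox1 was at 4.42 and Meox2 at 3.96 RPKM.

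**Figure D1:**
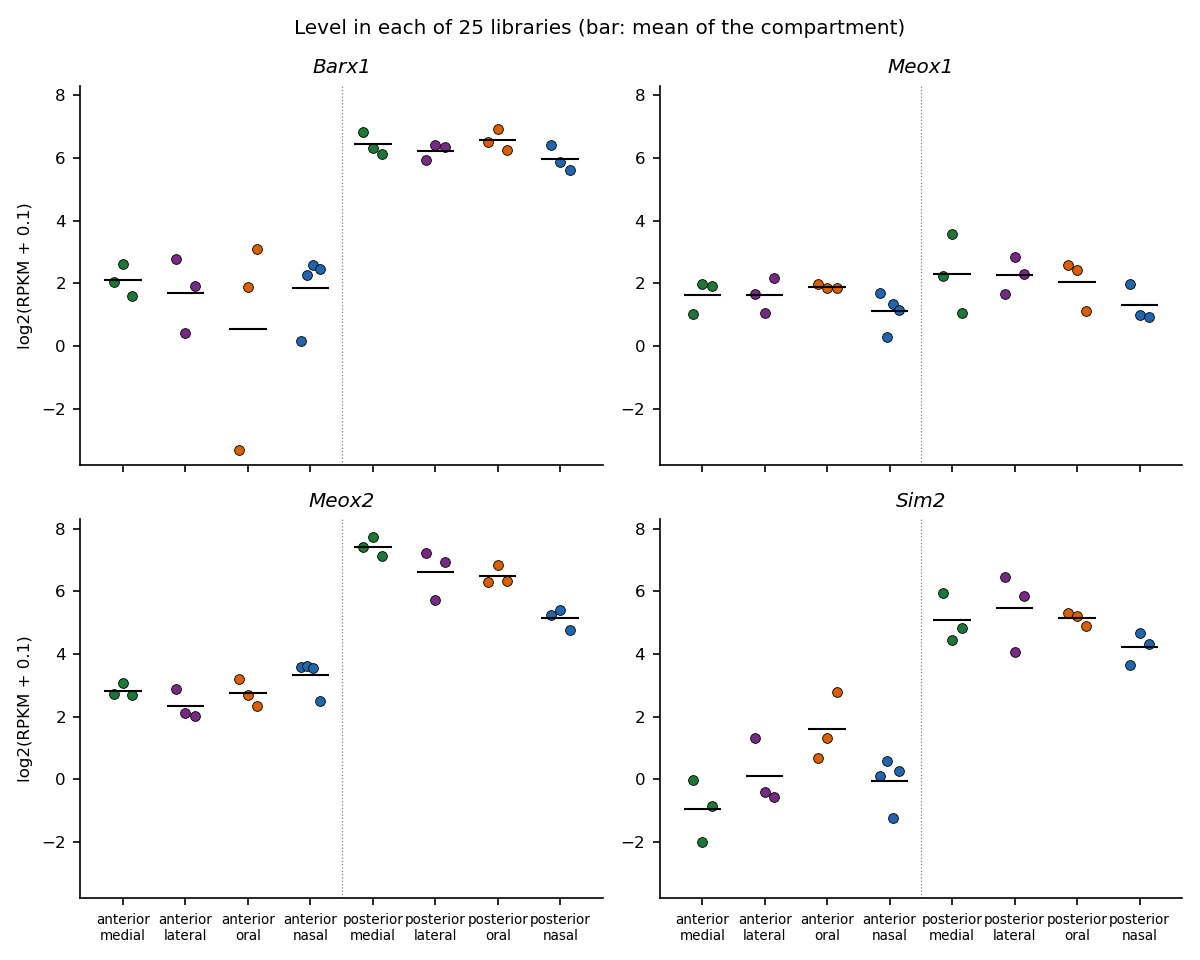
Level of each gene in each library, as log2(RPKM + 0.1) on the vertical axis, by compartment on the horizontal axis, with a bar at the mean of the logs. The posterior points of Barx1, Meox2 and Sim2 lie above all anterior points, those of Meox1 do not, and the lowest Barx1 point is the library listed at 0.

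The size of the posterior over anterior ratio is given next for each compartment and each sequencing run that held both regions. For 3 of the 4 genes every posterior library exceeded every anterior one, an order that 0.105% of the 8609 genes tested along this axis have, and that their selection fixed. Since the pool separates, each compartment and run must separate too, and only the size of the ratio is read from them. Barx1 was 15.01-fold higher in nasal, 19.5-fold in lateral, 20.3-fold in medial and 24.2-fold in oral, as ratios of mean RPKM. Meox2 ran from 3.44-fold in nasal to 24.7-fold in medial, and Sim2 from 9.92-fold in oral to 75.7-fold in medial. The compartment with the smallest ratio thus differed between Meox2 and Sim2. Meox2 had its highest anterior and lowest posterior mean in nasal, and Sim2 had its highest anterior mean in oral. The 75.7 rests on anterior medial libraries with an estimated 1.97 to 11.5 reads of Sim2, which are also the anterior side of run G. Within runs the ratio was 12.7 to 19.5 for Barx1, 11.1 to 16.9 for Meox2 and 6.52 to 57.7 for Sim2. The anterior libraries of run G were all medial and that of run H was lateral, while their posterior libraries included other compartments. With both run and compartment shared, the ratio was 10.9 to 22.6 for Barx1, 6.86 to 25.02 for Meox2 and 5.78 to 65.2 for Sim2. Within run C, oral and nasal each had 1 library per region, and Sim2 was 5.78 times higher in the posterior one in oral and 11.1 times higher in nasal. Meox1 had ratios of 1.15 to 1.94 within compartments. Without the libraries of runs A, B and C the log2 differences were 4.88, 3.43 and 4.89 for Barx1, Meox2 and Sim2, against 4.72, 3.57 and 4.83 with them. Without anterior oral replicate 1, which alone is listed at 0, that of Barx1 was 4.31.

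**Figure D2:**
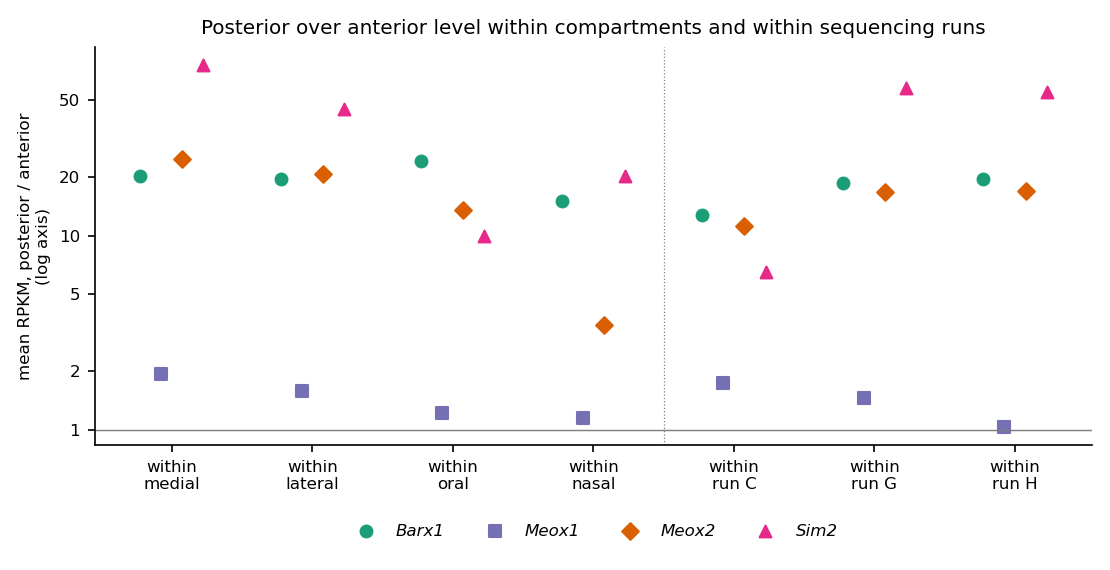
Ratio of mean RPKM, posterior over anterior, on a log axis for each gene within the 4 compartments and within the 3 runs that hold both regions. Barx1, Meox2 and Sim2 lie at 3.44 or above in each of them, and Meox1 lies between 1.03 and 1.94. The points of runs G and H set unlike compartments against each other.

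The oral side was then compared with the nasal side within each region. In the posterior palate Meox2 and Sim2 were higher in all 3 oral than in all 3 nasal libraries, and 6.21% of the 10587 genes tested have that order. The log2 difference, oral minus nasal, was 1.36 ± 0.26 (SE) for Meox2 and 0.93 ± 0.29 for Sim2, with adjusted p = 0.0552 and 0.300 in limma. Barx1 differed by 0.61 ± 0.28 and Meox1 by 0.75 ± 0.44, and their libraries overlapped. None of the 4 reached an adjusted p under 0.05, which 1.25% of genes did, while Meox2 and Sim2 had an unadjusted p under 0.05, as 8% of genes did. The adjusted p of Meox2 depended on the setting. It was 0.0393 with a pseudocount of 1 and 0.0380 after quantile normalization, 0.0642 with the replicate block, 0.269 without runs A, B and C, and 0.113 to 0.294 with 1 library left out. Within run C the oral library had 2.07 times and within run G 2.34 times the Meox2 of the nasal one, and for Sim2 the ratios were 3.20 and 1.32.

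Markers of bone-forming cells differed along the same axis. The 5 osteoblast markers summed to 281 to 450 RPKM in the posterior nasal libraries and to 34.8 to 93.6 RPKM in the other 9 posterior libraries, with all 5 present in nasal and Bglap at 0 in all posterior lateral libraries. The log2 level of Meox2 and the log2 marker sum had r = -0.87 over the 12 posterior libraries, and Barx1 and Sim2 had r = -0.39 and -0.57. The points share 4 compartments and are not independent. Endothelial markers also separated the sides, at 137 to 198 RPKM in oral and 59.7 to 92.0 in nasal, with r = 0.65 for Barx1, 0.56 for Sim2 and 0.31 for Meox2. With cartilage markers r was -0.59 for Meox2 and -0.60 for Sim2. The part of these cells in the differences was not tested.

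**Figure D3:**
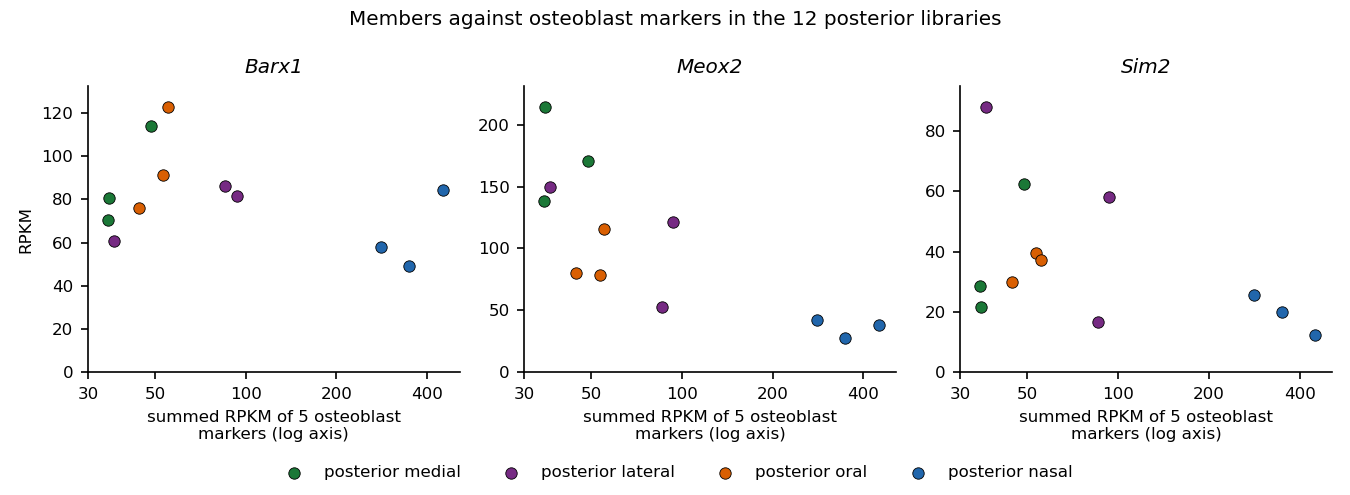
RPKM of 3 genes on the vertical axes against the summed RPKM of 5 osteoblast markers on a log axis in the 12 posterior libraries, coloured by compartment. The 3 nasal libraries lie at the right, at 281 to 450, with 27.2 to 41.9 RPKM of Meox2, below the Meox2 level of all others, while Barx1 in nasal overlaps the rest.

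In the anterior palate the oral libraries were all above the nasal ones for Sim2 and Meox1, an order that 1.66% of 10686 genes have. The log2 difference was 1.67 ± 0.58 (SE) for Sim2 and 0.78 ± 0.34 for Meox1, both with adjusted p over 0.99 in limma. Within runs C, D and E, which held both sides, the oral over nasal ratio was 6.16, 1.27 and 7.33 for Sim2 and 1.46 to 1.81 for Meox1, and its being over 1 follows from the separation. The 7.33 rests on a nasal library with an estimated 2.95 reads of Sim2. Cartilage markers summed to 7.67 to 14.4 RPKM in anterior oral and 21.9 to 30.6 in anterior nasal, without overlap, and endothelial markers had medians of 201 and 99.8. The part of these cells was not tested. Meox2 went the other way, with a log2 difference of -0.58 ± 0.36, and it stood lower in oral within all 3 runs, at 0.889, 0.749 and 0.544 times nasal, though the sets overlapped. The value of Barx1, -1.32 ± 1.40, rested on the library listed at 0, and without it the difference was 0.62. No gene of the 10686 reached an adjusted p under 0.05 here (0%), and 2.99% had an unadjusted p under 0.05, Sim2 and Meox1 among them.

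Whether the oral-nasal difference itself changed from front to back was tested as an interaction over 11443 genes. The oral minus nasal difference of Meox2 was larger in the posterior palate by 1.94 ± 0.47 (SE) on the log2 scale, 50th by p among the genes tested, with adjusted p = 0.321 in limma. It kept its sign under every alternative tried, with adjusted p from 0.121 to 0.9999. For Sim2 the interaction was -0.74 ± 0.75, for Meox1 -0.04 ± 0.60 and for Barx1 1.93 ± 1.71, the last falling to -0.01 without the library listed at 0. None of the 4 was called, and 0.035% of the genes tested were.

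The lateral and medial compartments were compared next. In the posterior palate the log2 difference, lateral minus medial, was -0.80 ± 0.46 (SE) for Meox2, 0.38 ± 0.72 for Sim2, -0.20 ± 0.31 for Barx1 and -0.02 ± 0.68 for Meox1. All 4 overlapped between the compartments, while 6.62% of 10325 genes did not. By limma 0% of genes had an adjusted p under 0.05 and 1.54% an unadjusted p under 0.05, none of the 4 among them. The lateral and medial libraries of the posterior palate share no run, so a term for the run is set there only through libraries of other compartments. Sim2 turned to -0.11 without posterior lateral replicate 1, its highest library at 87.9 RPKM and the only library of run B. That library also had the highest sum of 10 skeletal muscle markers, 157 RPKM, against 18.6 and 32.1 in the other lateral libraries and 0.968 to 17.4 in medial, where Myod1 and Myf5 are at 0 in all 3. The part of muscle in the Sim2 level was not tested.

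In the anterior palate the differences were 1.07 ± 0.62 (SE) for Sim2, -0.48 ± 0.24 for Meox2, -0.39 ± 0.56 for Barx1 and -0.01 ± 0.34 for Meox1. All 4 again overlapped, where 21.3% of 10430 genes did not, and none was called, where 2.49% were. The lateral and medial libraries come from different runs here too. The change of this contrast from front to back ran from -0.69 ± 1.07 for Sim2 to 0.19 ± 0.73 for Barx1, with none called and 0.00902% of 11090 genes called by limma.

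**Figure D4:**
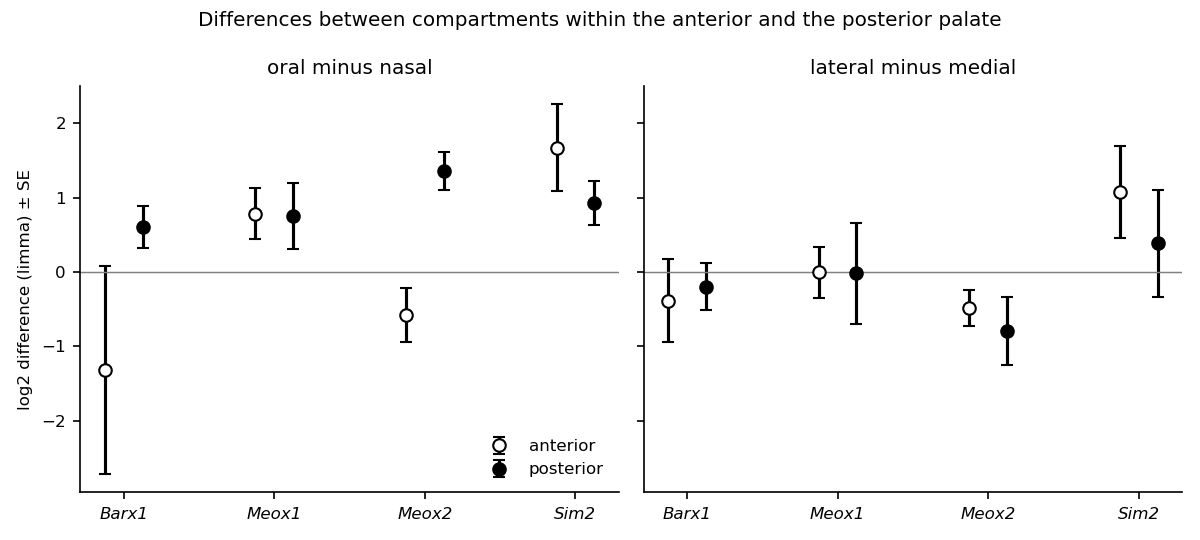
Log2 difference with its SE from limma, oral minus nasal at left and lateral minus medial at right, for the anterior (open) and posterior (filled) palate. Meox2 lies at -0.58 in the anterior and 1.36 in the posterior palate for oral minus nasal, and the wide bar of Barx1 comes from the library listed at 0.

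Over the 4 posterior compartments together, Meox2 had the largest F of the genes, 12.2, with adjusted p = 0.160 and rank 66 of 11157 by limma. The F was 1.55 for Barx1, 1.07 for Meox1 and 1.65 for Sim2. None was called in this test, and 0.17% of the genes tested were. The medial and lateral parts may overlap in position with the oral and nasal parts. With 1 library left out the F of Meox2 ran from 7.85, without posterior nasal replicate 3 (adjusted p = 0.714), to 24.6, without posterior lateral replicate 2 (0.0477), the only left-out fit under 0.05. With the spread shared over all 25 libraries the adjusted p was 0.00979.

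The genes whose levels followed each of the 4 most closely are given by Pearson's r of the log2 values, as a description over libraries that share compartments. Over 25 libraries, Eya4 (r = 0.865), an Eya family co-activator, was most like Barx1, and Sim2 was 5th (0.824) and Meox2 8th (0.823). Flrt2 (0.949), an adhesion protein, Tbx22 (0.925), the T-box gene of X-linked cleft palate, and the cadherin Cdh18 (0.914) were most like Meox2. Cdh18 (0.909) and Fndc1 (0.898) were most like Sim2, ahead of Meox2 (0.884). These values hold mainly the difference between posterior and anterior libraries on which the genes were chosen. Over these 25 libraries nothing stood close to Meox1, with Gabbr1 highest at 0.634.

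Within the 12 posterior libraries Barx1, Meox2 and Sim2 each had other genes closest to them than over all 25. Meox1 was followed by Stk10 (r = 0.877) and Man1c1 (0.875). Tnk2 was among the 5 genes closest to Meox1 in both sets (0.629 over 25 libraries, 0.855 here). Among the genes that followed Meox2 most closely were Grem1 (r = 0.962), which encodes a BMP antagonist, and Slc19a2, Pcdh10 and Rgs2 (0.947 to 0.944). Barx1 was followed by Plekhg2 (0.922) and the T-box gene Tbx3 (0.911), and Sim2 by Plekhh2 (0.901) and Ank2 (0.892). Among the genes themselves r was 0.627 for Meox2 and Sim2, 0.455 for Barx1 and Meox2, 0.166 for Barx1 and Sim2, 0.623 for Barx1 and Meox1, and -0.01 for Meox1 and Sim2.

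Relatives and partners of Sim2 were taken as a list of 15 bHLH-PAS genes. The dimer partners Arnt and Arnt2 were present in every compartment, Arnt at 22.4 ± 1.86 RPKM (SD) over the 12 posterior and 22.2 ± 2.59 over the 13 anterior libraries, and Arnt2 at 15.9 ± 5.59 and 18.3 ± 4.80. Of the 15 genes 8 met the minimum for the front to back comparison, in which 3.32% of all genes tested were called. That fit had no term for the compartment, so libraries of unlike compartments stood as replicates of a region. Npas3, a brain-enriched bHLH-PAS factor, was higher in the posterior palate and Epas1, which encodes HIF-2 alpha, was lower. The list had a median log2 difference of -0.02, beside 0.03 over all genes tested. Npas3 averaged 12.7 ± 5.65 RPKM (SD) over the 12 posterior and 5.02 ± 1.77 over the 13 anterior libraries, a log2 difference of 1.22 ± 0.26 (SE) with adjusted p = 0.00528 by limma. It met the minimum of 10 RPKM only through posterior libraries, where it is high, as its highest anterior value was 8.97 RPKM. Its adjusted p of 0.00528 is therefore no support for the difference. With no minimum it was 0.00981, still under 0.05. Npas3 was called in all 25 fits that left out 1 library, which used the same minimum. The difference of Epas1 was -0.94 ± 0.26 with adjusted p = 0.0430 by limma. Its adjusted p was past the threshold in 9 of the 25 fits that left out 1 library, from 0.0147 to 0.0822. With the run as a term it was 0.365. The highest Epas1 values, 84.6 and 84.3 RPKM, came from anterior nasal replicate 1 and anterior oral replicate 1, both of run D.

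Npas3 also shared the low nasal level of Meox2 and Sim2. It stood at 14.7, 15.8 and 14.8 RPKM in posterior oral and at 3.85, 6.84 and 3.86 in posterior nasal, without overlap. The log2 difference was 1.67 ± 0.27 (SE) with adjusted p = 0.0284 by limma, and it was the only gene of this list called for that contrast. The call held only where posterior nasal replicate 2 was the library left out (0.0312 against 0.0861 to 0.169 without one of the other 5). Npas3 met the minimum through the oral libraries, where it is high, as 6.84 was its only nasal value over 5 RPKM. Its adjusted p is therefore no support for the difference. With no minimum it was 0.1475. With the run as a term it was 0.126. In posterior medial and lateral Npas3 averaged 18.9 ± 3.20 and 11.8 ± 1.31 RPKM (SD, n = 3 each), and the test over the 4 compartments gave adjusted p = 0.0482. That call held in 3 of 12 fits that left out 1 library (0.0320 to 0.355). The adjusted p was 0.0644 with the replicate block and 0.1001 with no minimum. Between anterior lateral and medial, where 2.49% of all genes tested were called and 15% had an unadjusted p under 0.05, 7 genes of this list met the minimum, and Ahr and Hif3a were higher in lateral, by 1.13 ± 0.13 and 0.84 ± 0.15 on the log2 scale, with adjusted p = 0.00654 and 0.0335 by limma. Neither call held with the run as a term (adjusted p = 0.9999), where the differences were 1.44 and 0.82. Anterior lateral and medial share no run, and 0 of all genes tested were called under that setting, so it cannot decide these calls. The call of Hif3a held in 1 of 6 fits that left out 1 library (0.0449 to 0.140). Its adjusted p was 0.0583 with the replicate block and 0.122 with no minimum, where that of Ahr was 0.0474. Endothelial markers summed to 157 to 181 RPKM in anterior lateral and 108 to 133 in anterior medial, and cartilage markers to 9.03 to 11.4 and 18.9 to 35.1. Their part was not tested.

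**Figure D5:**
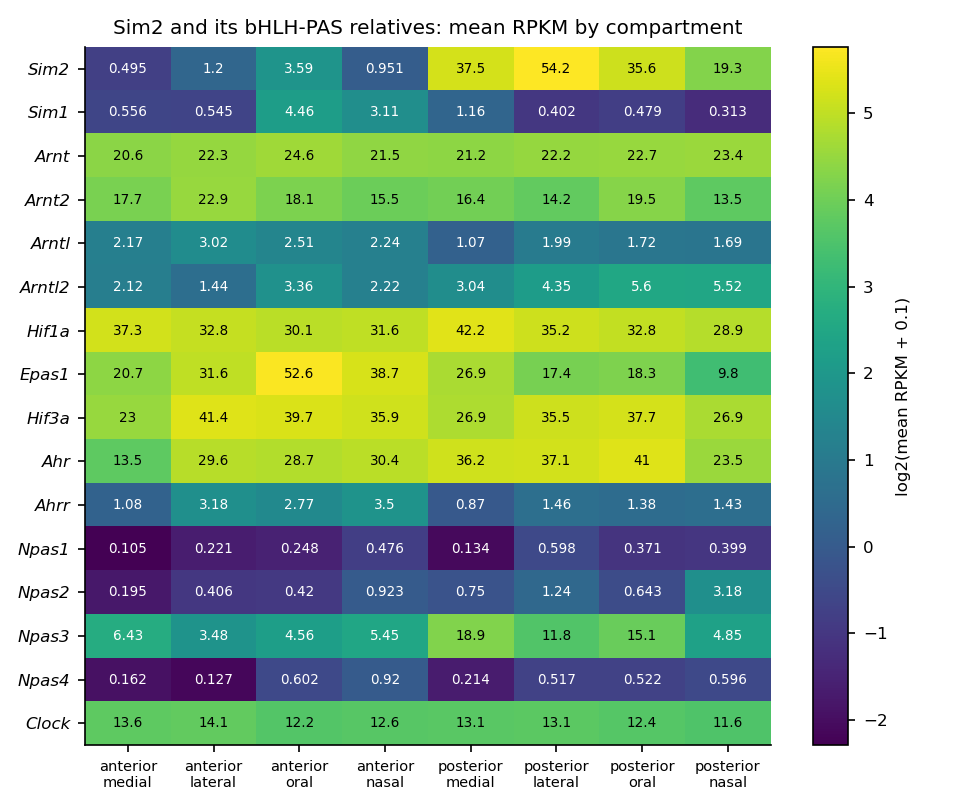
Mean RPKM of Sim2 and 15 bHLH-PAS relatives in the 8 compartments, printed in each cell and coloured by log2(mean RPKM + 0.1). Sim2 goes from 0.495 in anterior medial to 54.2 in posterior lateral, Arnt stays between 20.6 and 24.6, and Npas3 is highest in posterior medial, at 18.9.

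Of the genes tied to Barx1 in other tissues, Sfrp1, Sfrp2 and Bmp4 met the minimum in all 8 comparisons. By limma 0 of the 3 was called in any, where 0% to 3.32% of all genes tested were called. With shares that low, 0 of 3 tells nothing particular about these genes. Bmp4 averaged 48.6 ± 41.9 RPKM (SD) over the 12 posterior and 27.2 ± 11.6 over the 13 anterior libraries. Its highest posterior values were 137 RPKM in lateral replicate 1 (run B) and 132 in medial replicate 1 (run A). The remaining posterior libraries lay at 8.03 to 44.6 RPKM. The posterior oral minus nasal difference of Bmp4 was 1.66 ± 0.32 (SE) with adjusted p = 0.0549. Fgf8 was at 0.0948 RPKM in 1 library and listed at 0 in the other 24. Of the Bar-class relatives Barx2, Barhl1, Barhl2 and Bsx, 0 of 4 met the minimum in any comparison.

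Among 8 genes tied to the Meox genes in the somite lineages or to their control of the cell cycle, 2 or 3 met the minimum in each comparison. Cdkn1a, a cell cycle inhibitor that Meox2 can activate in vascular cells, had the opposite direction to Meox2. It stood at 1.95, 4.07 and 3.67 RPKM in posterior oral and at 14.4, 18.9 and 13.0 in posterior nasal, a log2 difference of -2.27 ± 0.31 (SE). Cdkn1a met the minimum only through the nasal libraries, where it is high, so its adjusted p of 0.0164 by limma is no support for the difference. With no minimum it was 0.108. Osteoblast markers were higher in the same nasal libraries, as given above, and their part was not tested. Pax9, which is needed for palate growth, was not called in any comparison, where 0% to 3.32% of all genes tested were.

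Hyaluronan genes were followed because of the hyaluronan excess known in mice without Sim2. The list was drawn up with earlier results of these data known, so its count, median and p-values are no independent test. Of 6 genes 4 met the minimum from front to back, with 0 higher and 2 lower in the posterior palate, where 3.32% of all genes tested were called, and a median log2 difference of -0.44, beside 0.03 over all genes tested. Has2, the main hyaluronan synthase of embryonic mesenchyme, averaged 31.1 ± 11.99 RPKM (SD) over the 12 posterior and 58.9 ± 14.1 over the 13 anterior libraries, a log2 difference of -0.98 ± 0.18 (SE) with adjusted p = 0.00139 by limma. Cd44, the hyaluronan receptor, stood at 12.2 ± 5.14 and 24.5 ± 3.51 RPKM, with -1.16 ± 0.24 and adjusted p = 0.00367. Both p-values take libraries of unlike compartments as independent replicates of a region. With the run as a term the difference was -1.04 with adjusted p = 0.0301 for Has2 and -1.13 with 0.129 for Cd44. None of the 6 was called in the comparisons within a region, where 0% to 2.49% of all genes tested were.

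Of 7 transcription factors with a known place along the palate, all met the front to back minimum, and 1 was higher and 4 were lower in the posterior palate, where 3.32% of all genes tested were called, with a median log2 difference of -1.35 beside 0.03 over all genes tested. The list was drawn up with these front to back results known, so its count and median describe the choice. In addition, Alx1, Msx1 and Tbx22 met the minimum only through the region where they are high. The 4 lower were Alx1, Msx1, Osr1 and Shox2, and the call of Osr1 held in 9 of 25 fits that left out 1 library and was lost with the replicate block (0.0587). The one higher was Tbx22, which within the posterior palate had an order near that of Meox2, with 72.2 ± 41.6 RPKM in medial, 24.02 ± 1.56 in oral, 21.2 ± 6.62 in lateral and 15.3 ± 1.23 in nasal (SD, n = 3 each). Its posterior oral minus nasal difference was 0.65 ± 0.20 (SE) with adjusted p = 0.264 by limma. Osr1, an odd-skipped zinc finger factor, was the 1 gene of this list called for that contrast, at 2.01 ± 0.26 with adjusted p = 0.0142. Its adjusted p was 0.152 with the run as a term, 0.102 with no minimum and 0.190 without runs A, B and C. It was 0.0569 without posterior nasal replicate 1 and 0.0972 without replicate 3. Between anterior lateral and medial, Msx1, Osr1 and Osr2 were higher in lateral, by 1.90 ± 0.33, 2.24 ± 0.11 and 0.96 ± 0.19 (SE). None of the 3 calls held in limma with the run as a term (adjusted p = 0.9999), where the differences were 3.41, 2.75 and 1.91. These compartments share no run, and 0 of all genes tested were called under that setting, so it cannot decide these calls. Msx1 and Osr2 were also not called with the replicate block (0.0652 and 0.0709) and were each called in 1 of 6 fits that left out 1 library. With no minimum the adjusted p was 0.125 for Msx1, 0.15 for Osr2 and 0.00805 for Osr1. Msx1 met the minimum through the lateral libraries, where it is high, as 5.95 was its only medial value over 5 RPKM. Its call is therefore no support for the difference.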

How the data were processed

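RNA of 25 laser captured compartments was amplified (NuGEN Ovation V2), tagmented (Nextera) and sequenced as single reads of 50 bases. The authors deposited RPKM values made in GeneSpring after removing duplicate and multiply aligned reads. The submitters' processing notes name TopHat and mm9. The column of anterior medial replicate 2, whose name lacks the word RPKM, was read as RPKM. Groups came from the labels, and sequencing runs from alignment names in the study's supplementary table headers.

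The 4 genes and the gene lists were chosen with earlier results of these data known. log2(RPKM + 0.1) was compared with limma 3.58.1 in R 4.3.3 (lmFit, eBayes), with Benjamini-Hochberg adjustment over all genes tested and calls under 0.05. Pairs of compartments used genes that reached 5 RPKM in 3 or more libraries. Posterior against anterior used those that reached 10 RPKM in 6 or more. The latter fit had no term for the compartment, so libraries of unlike compartments stood as replicates of a region. The 4 genes were kept in every fit. Meox1 passed the minimum only among the posterior compartments, Barx1 and Sim2 failed it in 1 and 2 anterior pairs, and Meox2 always passed. List genes are named where called, and Arnt, Arnt2, Bmp4, Fgf8 and Pax9 were named after their values were seen. Libraries sharing a replicate number were compared by their deviations from group means across genes. Their correlations were 0.239, 0.215 and 0.130 in anterior oral and nasal, all over 0.1, so the numbers were taken to pair libraries there, a reading from the data as no label says so. Libraries with unlike numbers from 1 run correlated more in places, oral 2 with nasal 3 at 0.504 (run E) and oral 3 with nasal 4 at 0.150 (run C), so the pairing is weak. In the other pairs at least 1 was under 0.1. Depth was estimated from the steps in low RPKM values and GENCODE M21 transcript lengths, and limits given from it cover counting error only. Python 3.11.15, numpy 2.4.6, pandas 2.3.3 and matplotlib 3.10.9 made the tables and figures. Alternatives were a pseudocount of 1, no minimum, quantile normalization, the replicate block, 1 fit of all libraries, the run as a term, leaving out each library and, added after seeing the data, leaving out runs A, B and C. A gene among those most like Meox2 and a sequence comparison are not reported here.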

Additional observations from a re-analysis of the deposited data

Results flagged for a closer look

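Meox2 in anterior nasal replicate 4 stood at 5.55 RPKM, while the other 3 libraries of that compartment stood at 11.7 to 12.2. The gap to the nearest of them, divided by the range of the group, was 0.916, over Dixon's critical value for 4 libraries. It is the library of run C in that compartment. This compartment is the only one with enough libraries for this test, and of the 4 genes tested in it 1 passed the limit, which chance does in about 1 in 20 groups. Without it the oral minus nasal difference of Meox2 in the anterior palate was -0.85 on the log2 scale, against -0.58 with it, and the change of that difference from anterior to posterior was 2.21, with adjusted p = 0.121 by limma.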

How the results depend on the processing

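The tests of the 4 genes were recomputed under 440 alternatives, of which 404 kept direction and side of the threshold, 32 turned the direction and 4 put Meox2 past the threshold. The replicate block changed no call of the 4 genes. Counts of genes called moved more. With no minimum on RPKM, 11 genes were called between posterior oral and nasal (132 in the report's fit), 157 between anterior lateral and medial (260), 0 and 0 for the changes of the oral-nasal (4) and lateral-medial (1) difference, and 485 from front to back (286). With 1 fit of all libraries the counts were 68, 6 (anterior oral and nasal, 0), 25 (posterior lateral and medial, 0), 31, 10, 10 and 160 (the 4 posterior compartments, 19). With the run as a term they were 15, 4, 1, 0, 0, 3 and 47, and 160 from front to back. Without runs A, B and C they were 0 between posterior oral and nasal, 0 and 2 for the changes of the oral-nasal and lateral-medial difference, and 1 over the 4 posterior compartments. A pseudocount of 1 gave 7, 6 and 47 for the 2 changes and the 4 compartments, quantile normalization 1 and 2 for the changes, and the replicate block 157 between anterior lateral and medial and 0 and 0 for the changes. With 1 library left out the counts ran from 12 to 57 and 0 to 6 for oral against nasal in posterior and anterior, 0 to 1 and 54 to 195 for lateral against medial, 0 to 5 and 0 to 9 for the changes, 1 to 51 over the 4 compartments and 231 to 414 from front to back. Directions turned in these cases. With the run as a term, lateral minus medial was 0.58 for Barx1 and 0.36 for Meox1 in the posterior and 0.26 and 0.65 in the anterior palate. Without runs A, B and C it was 0.15 and 0.25 in the posterior palate, and the changes of the oral-nasal and lateral-medial difference of Meox1 were 0.0085 and 0.26. With a pseudocount of 1 the first of these was 0.016, and after quantile normalization the second was 0.013. With 1 library left out, anterior oral minus nasal of Barx1 ran from -2.59 to 0.62. Posterior lateral minus medial ran from -0.63 to 0.62 for Meox1 and from -0.11 to 1.078 for Sim2, and anterior lateral minus medial from -0.93 to 0.26 for Barx1 and -0.31 to 0.29 for Meox1. The change of the oral-nasal difference ran from -0.0090 to 3.20 for Barx1 and -0.31 to 0.43 for Meox1. That of the lateral-medial difference ran from -0.46 to 0.73 for Barx1, -0.62 to 0.63 for Meox1, -0.62 to 0.13 for Meox2 and -1.18 to 0.0079 for Sim2. The cause of these moves was not tested. Same-numbered libraries of the other pairs correlated at -0.155 to 0.418 and share only a number. Depth limits Meox1 and the anterior levels of Barx1 and Sim2.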

Other observations

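A pair of relatives of the 4 genes was low in most libraries and high in the 3 libraries of sequencing run D. Sim1, the closest relative of Sim2, stood at 12.4 RPKM in anterior oral replicate 1 and at 6.79 and 4.84 in anterior nasal replicates 1 and 2, where the median of all 25 libraries was 0.478. Barhl2, a Bar-class relative of Barx1, stood at 14.2, 11.2 and 2.97 RPKM in the same libraries, with a median of 0.432. These are the 3 highest values of each gene. The other libraries of anterior oral and nasal, from runs C and E, lay at 0.241 to 0.585 RPKM of Sim1. The pattern was not particular to these relatives. Uncx, from the list tied to the Meox genes, stood at 16.3, 12.4 and 6.14 RPKM in the same libraries, with 4.14 its highest elsewhere. The genes were singled out after their values were seen, and the part of the run was not tested.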
